A study of Arabidopsis thaliana with 18 samples.

Results

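The genes described here are 6 of the 32833 genes counted in each library. They are ALS3, STAR1 and ALS1, which encode parts of ABC transporters named for aluminium tolerance, and LPR1, LPR2 and PDR2, which set root growth when phosphate is low. They were chosen by name, as the genes of the ALS3-STAR1 transporter and of the LPR1 pathway. All 6 passed the filter on low counts that left 21650 genes for testing.

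Poly(A) RNA of whole seedlings of Arabidopsis thaliana, ecotype Col-0, was sequenced 84 h after sowing. The 6 groups were als3-1 on 1.5 mM AlCl3, als3-1 on 0 mM, sog1-7 on 1.5 mM, sog1-7 on 0 mM, wild type on 1.5 mM and wild type on 0 mM, with 3 libraries each, numbered 2, 3 and 4 in the labels. All seedlings grew on gel medium of pH 4.2 at 20 °C in constant light. als3-1 carries a mutant allele of ALS3 and sog1-7 a mutant allele of SOG1, a transcription factor of the DNA damage response, and the kind of lesion in each is not given in the sources used here. The design asks how the response to Al differs between the mutants and wild type. Because whole seedlings were used, a change in a tissue's share of the seedling and a change in RNA per cell cannot be told apart. Nothing in the labels says that the libraries of a group came from separate cultures, so the spread behind each p-value may be technical.

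Libraries held 25.56 to 44.57 times 1e6 counts. In 3 of the replicates numbered 2 (als3-1 and sog1-7 on 1.5 mM, sog1-7 on 0 mM), ribosomal RNA genes took 0.0168% to 0.0286% of the counts, against 0.909% to 5.71% in the other 15. These are called the low-rRNA libraries, and calls of the 6 genes that change without them are marked. Levels within a gene are given as counts per 1e6 counts (CPM) after TMM scaling, and levels between genes as FPKM, which takes transcript length into account. Fold changes are log2 values ± SE from the quasi-likelihood test of edgeR, and the threshold for a call is an adjusted p of 0.05 (Benjamini-Hochberg, over all genes tested).

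ALS3 and STAR1 encode the membrane part and the ATP-binding part of 1 bacterial-type ABC transporter, and plants lacking either are hypersensitive to Al and stop root growth sooner when phosphate is low. ALS1 is a vacuolar ABC transporter of the B subfamily that is also needed for Al tolerance. LPR1 and LPR2 are ferroxidases, multicopper oxidases that oxidise ferrous iron in the cell wall of the root tip, and PDR2 is a P-type ATPase of the endoplasmic reticulum that restrains LPR1 action. Loss of LPR1 relieves the short root of plants without ALS3 or STAR1 at low phosphate.

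The 6 genes lie on chromosomes 1, 2 and 5 of the TAIR10 genome. ALS3 (AT2G37330) spans 15669131 to 15670187 on the plus strand of chromosome 2, has 3 exons and encodes 273 amino acids. STAR1 (AT1G67940, also ABCI17) spans 25477670 to 25478803 on the plus strand of chromosome 1, has 2 exons and encodes 263 amino acids. ALS1 (AT5G39040, also ABCB27) spans 15625460 to 15629835 on the plus strand of chromosome 5, has 17 exons and encodes 644 amino acids. LPR1 (AT1G23010) spans 8147118 to 8149891 on the plus strand of chromosome 1, and LPR2 (AT1G71040) spans 26796725 to 26800483 on its minus strand. Both have 4 exons and encode proteins of 581 amino acids. PDR2 (AT5G23630) spans 7960478 to 7968197 on the minus strand of chromosome 5, has 22 exons and encodes 1179 amino acids. The ends of 3 of the genes overlap a gene on the opposite strand, ALS3 with AT2G37340 by 41 bases, STAR1 with AT1G67950 by 91 bases and LPR1 with FRO3 by 24 bases. The strand setting of the counting is not given in the sources used here, so reads in these stretches may have come from either gene. None of these 3 neighbours was called by edgeR or had an unadjusted p under 0.05 in any Al response. In 2 libraries AT2G37340 stood apart, with 16.8 CPM in als3-1 0 mM replicate 2 and 16.6 CPM in wild type 1.5 mM replicate 2, against 43.1 to 55.6 CPM in the other 16. ALS3 was the lowest of its group in both of these libraries, and the part of the overlap in the ALS3 values was not tested.

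The promoters of ALS3, LPR1 and LPR2 are shown because these are the genes whose level changed most with Al. Each is the 250 bases before the annotated start of the gene in the RefSeq assembly TAIR10.1, on the gene's strand, at chr2:15668881-15669130 (plus) for ALS3, chr1:8146868-8147117 (plus) for LPR1 and chr1:26800484-26800733 (minus) for LPR2. Capitals mark the single motif match found.
ALS3: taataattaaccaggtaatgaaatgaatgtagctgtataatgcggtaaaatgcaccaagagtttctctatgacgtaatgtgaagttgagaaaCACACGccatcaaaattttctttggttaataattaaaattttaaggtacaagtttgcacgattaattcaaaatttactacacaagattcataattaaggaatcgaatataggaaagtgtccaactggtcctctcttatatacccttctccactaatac
LPR1: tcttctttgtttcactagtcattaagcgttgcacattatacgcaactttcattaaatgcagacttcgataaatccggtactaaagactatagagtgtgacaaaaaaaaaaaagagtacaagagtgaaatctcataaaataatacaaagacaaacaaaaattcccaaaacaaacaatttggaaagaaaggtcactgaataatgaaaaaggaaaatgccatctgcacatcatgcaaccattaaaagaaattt
LPR2: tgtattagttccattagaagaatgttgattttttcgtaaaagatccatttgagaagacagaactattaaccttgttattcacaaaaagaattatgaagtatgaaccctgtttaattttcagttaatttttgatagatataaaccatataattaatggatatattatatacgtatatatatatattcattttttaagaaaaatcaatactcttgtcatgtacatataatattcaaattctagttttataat

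Both strands of the promoters of all 6 genes were searched for 3 motifs. They were GNATATNC, which is bound by PHR1, the main phosphate starvation regulator, CTTNNNNNNNAAG, which is bound by SOG1, and CGTGNG, which is bound by BZR1, a brassinosteroid regulator. Of 27431 promoters of the same length, 5.45% held the PHR1 motif, 9.7% the SOG1 motif and 12.4% the BZR1 motif. Among the 6 genes the only match was to the BZR1 motif in the ALS3 promoter, read on the other strand as CACACG, from base -158 to base -153 before the start. The stretch searched for STAR1 overlaps another annotated gene, AT1G67930. A match is a description of the letters and not a binding site.

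Per length, PDR2 was the most abundant of the 6 transcripts in all 18 libraries, with 18.9 to 26.8 FPKM. ALS1 ranged over the 18 libraries from 11.4 to 20.9 FPKM, LPR2 from 5.21 to 20.1 FPKM and STAR1 from 8.98 to 17.4 FPKM. These 3 changed places with each other from library to library, so their order did not hold beyond the spread. The scarcest were ALS3 with 1.73 to 7.5 FPKM and LPR1 with 1.07 to 4.34 FPKM. LPR1 was the lower of the pair except in the 3 sog1-7 libraries on 0 mM, where ALS3 was lower. The highest level of ALS3 was 4.34 times its lowest, that of LPR1 4.06 times and that of LPR2 3.87 times, while PDR2 varied by 1.42 times.

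**Figure D1:**
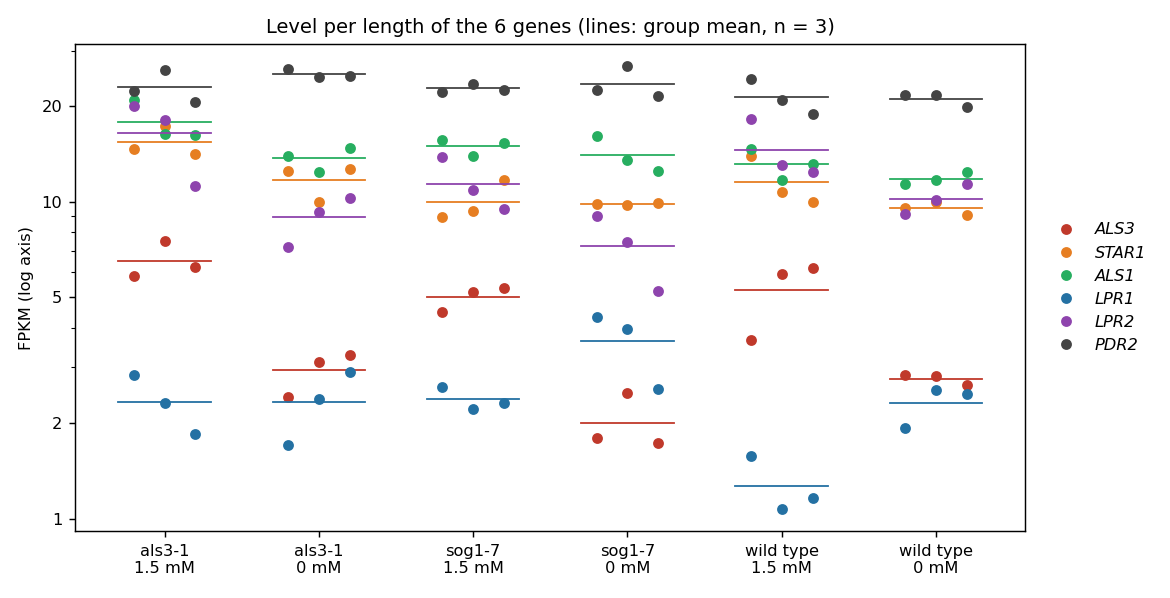
Level per length of the 6 genes in each library, in FPKM on a log axis, with the group mean as a line (n = 3). PDR2 is at the top in every library, and ALS3 and LPR1 lie at the bottom, in reversed order in sog1-7 on 0 mM.

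The ALS3 transcript was raised by Al in both mutants, and its mean response over the 3 genotypes was 1.10 ± 0.16. In als3-1 it had 5.07, 7.88 and 7.29 CPM in replicates 2, 3 and 4 on 1.5 mM, against 2.56, 3.79 and 3.52 CPM on 0 mM. In sog1-7 it had 3.84, 5.77 and 5.65 CPM on 1.5 mM, against 1.55, 2.53 and 2.22 CPM on 0 mM. Wild type libraries had 3.93, 7.63 and 7.87 CPM on 1.5 mM, against 3.18, 3.59 and 3.07 CPM on 0 mM. Every library on 1.5 mM was above every library on 0 mM of its genotype, and replicate 2 was the lowest of its group except in wild type on 0 mM.

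The log2 fold change of ALS3 was 1.03 ± 0.27 in als3-1 (adjusted p = 0.0232) and 1.28 ± 0.28 in sog1-7 (adjusted p = 0.0332). In wild type it was 0.98 ± 0.28 and was not called (adjusted p = 0.101). With the replicate number as a block the wild type value was 0.93 and was called (adjusted p = 0.00375). The wild type value was also called without wild type 1.5 mM replicate 2 (adjusted p = 0.0248). No difference between the 3 responses was called. That of als3-1 minus wild type was 0.06 (95% interval -0.77 to 0.88), and that of sog1-7 minus wild type was 0.30 (-0.53 to 1.13). The mean response (adjusted p = 0.000229) was called in all 27 alternative settings tried. The call in als3-1 ended without als3-1 0 mM replicate 2 or 4 or als3-1 1.5 mM replicate 3 or 4 (adjusted p of 0.0554 to 0.104). The call in sog1-7 ended without any of its libraries but 1.5 mM replicate 2 (adjusted p of 0.0593 to 0.164), in the fit of the 2 groups alone (adjusted p = 0.138) and without the low-rRNA libraries (adjusted p = 0.0958).

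The level of ALS3 in als3-1 was close to that in wild type. On 0 mM, ALS3 averaged 3.29 ± 0.65 CPM in als3-1 and 3.28 ± 0.276 CPM in wild type (SD, n = 3 each), and on 1.5 mM it averaged 6.74 ± 1.48 CPM in als3-1 and 6.48 ± 2.21 CPM in wild type. The difference of als3-1 from wild type was 0.00 on 0 mM (95% interval -0.59 to 0.60) and 0.06 on 1.5 mM (-0.51 to 0.63). The groups overlapped at both concentrations. In sog1-7 on 0 mM ALS3 averaged 2.10 ± 0.50 CPM, and every library lay below those of wild type (as for 14.5% of all genes) and of als3-1 (8.66% of all genes separated in that direction), but neither difference was called (-0.65, adjusted p = 0.171, against wild type). With the replicate block the difference from wild type was -0.67 and was called (adjusted p = 0.011). SOG1 had 13.6 to 19.5 CPM over the 18 libraries and its difference between sog1-7 and wild type on 0 mM was not called (0.11, 95% interval -0.17 to 0.39). The counts of ALS3 and SOG1 therefore gave no check of either mutant label.

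STAR1, the ATP-binding partner of ALS3, was not called in any Al response. In als3-1 it had 15.0, 20.8 and 19.2 CPM on 1.5 mM, against 14.5, 13 and 15.3 CPM on 0 mM. In sog1-7 it had 9.45, 12.0 and 13.8 CPM on 1.5 mM, against 10.4, 11.7 and 13.7 CPM on 0 mM. Wild type seedlings had 16.4, 15.1 and 14.3 CPM on 1.5 mM, against 13.4, 14.1 and 12.9 CPM on 0 mM. The ranges overlapped in both mutants, while in wild type the 3 libraries on 1.5 mM were all slightly above those on 0 mM.

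The log2 fold change of STAR1 with Al was 0.36 ± 0.15 in als3-1 (adjusted p = 0.152), -0.02 ± 0.15 in sog1-7 and 0.19 ± 0.15 in wild type. The low-rRNA library als3-1 1.5 mM replicate 2 held the lowest STAR1 value of its group. Without the low-rRNA libraries the als3-1 value was 0.49 and was called (adjusted p = 0.0195), and the mean response, 0.18 ± 0.09 (adjusted p = 0.22), was called as well (adjusted p = 0.0386). The 95% interval of the wild type response was -0.14 to 0.51 for STAR1 and 0.39 to 1.56 for ALS3, and the difference between the genes was not tested.

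Between genotypes STAR1 differed on 1.5 mM, where als3-1 was 0.64 ± 0.15 higher than sog1-7 on the log2 scale (adjusted p = 0.0188). All 3 als3-1 libraries, at 15.0 to 20.8 CPM, were above the sog1-7 libraries, at 9.45 to 13.8 CPM, a separation found for 10.9% of all genes. The wild type libraries, at 14.3 to 16.4 CPM, overlapped those of als3-1, and neither mutant was called against wild type (0.26 for als3-1 and -0.38 for sog1-7, adjusted p = 0.381 and 0.14). The call ended without als3-1 1.5 mM replicate 3, sog1-7 1.5 mM replicate 2 or sog1-7 1.5 mM replicate 3 (adjusted p of 0.0587 to 0.101), and in the fit of the 2 groups alone (adjusted p = 0.154).

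ALS1, the vacuolar transporter, rose with Al in als3-1 by a small amount. It had 46.9, 43.6 and 47.9 CPM in als3-1 on 1.5 mM, against 36.0, 36.1 and 39.4 CPM on 0 mM. In sog1-7 it had 35.1, 38.4 and 40.5 CPM on 1.5 mM, against 36.0, 35.3 and 38.3 CPM on 0 mM. For wild type the values were 39.2, 37.2 and 41.7 CPM on 1.5 mM, against 35.1, 35.7 and 37.1 CPM on 0 mM. The als3-1 libraries on 1.5 mM were the 3 highest of all 18, and the other 15 lay between 35.1 and 41.7 CPM. Of all genes, 11.4% separated in this direction between als3-1 and wild type on 1.5 mM, and 10.9% between als3-1 and sog1-7. The log2 fold change of ALS1 was 0.31 ± 0.09 in als3-1 (adjusted p = 0.0277), 0.06 ± 0.09 in sog1-7 and 0.13 ± 0.09 in wild type. The mean response was 0.17 ± 0.05 (adjusted p = 0.0343). The als3-1 call ended without als3-1 0 mM replicate 2 or 3, als3-1 1.5 mM replicate 2 or 4 or wild type 0 mM replicate 3 (adjusted p of 0.0521 to 0.096), in the fit of the 2 groups alone (adjusted p = 0.158) and by limma on FPKM (adjusted p = 0.13), and was held in 19 of 27 alternative settings. The call of the mean response ended in 11 of the 18 fits that left out 1 library (adjusted p of 0.0541 to 0.0974) and by limma on FPKM (adjusted p = 0.129), and was held in 13 of the 27 settings. On 1.5 mM, ALS1 was 0.23 ± 0.09 higher in als3-1 than in wild type and 0.28 ± 0.09 higher than in sog1-7. Neither was called (adjusted p = 0.142 and 0.0618), and both were called with the replicate block (adjusted p = 0.0376 and 0.0123).

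LPR1, the ferroxidase that the low-phosphate response needs most, fell with Al in wild type. It had 6.10, 5.84 and 5.25 CPM in als3-1 on 1.5 mM, against 4.38, 6.52 and 7.44 CPM on 0 mM. In sog1-7 it had 5.63, 6.02 and 5.84 CPM on 1.5 mM, against 9.31, 10.0 and 7.46 CPM on 0 mM. The wild type values were 3.98, 3.18 and 3.50 CPM on 1.5 mM, against 5.60, 7.42 and 7.16 CPM on 0 mM. The als3-1 libraries overlapped, while in sog1-7 and in wild type those on 1.5 mM were all below those on 0 mM.

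The log2 fold change of LPR1 was -0.09 ± 0.18 in als3-1 (adjusted p = 0.794), -0.62 ± 0.18 in sog1-7 (adjusted p = 0.146) and -0.92 ± 0.19 in wild type (adjusted p = 0.0165). The response of als3-1 minus that of wild type was 0.83 ± 0.26, with an unadjusted p of 0.00618, and was not called over all genes (adjusted p = 0.314). In that difference 0.402% of all tested genes were called and none of the 6, and LPR1 was the only 1 of the 6 with an unadjusted p under 0.05. The mean response of LPR1 was -0.54 ± 0.11 (adjusted p = 0.00243), a call held in 25 of the 27 settings and missed by limma on FPKM (adjusted p = 0.0512). The wild type call ended without wild type replicate 3 or 4 of either concentration (adjusted p of 0.0674 to 0.082), and was not made in the fit of the 2 groups alone (adjusted p = 0.0791) or by limma on log2(FPKM + 0.1) (adjusted p = 0.147). FRO3, the ferric reductase gene whose end overlaps LPR1, had 90.9 to 782 CPM over the 18 libraries and changed by 0.44 ± 0.51 in wild type without a call.

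On 1.5 mM, LPR1 was higher in both mutants than in wild type. It averaged 5.73 ± 0.435 CPM in als3-1, 5.83 ± 0.195 CPM in sog1-7 and 3.55 ± 0.404 CPM in wild type (SD, n = 3 each), and the lowest mutant library, at 5.25 CPM, was above the highest wild type library, at 3.98 CPM. Of all genes, 11.4% were separated in that direction between als3-1 and wild type and 14.5% between sog1-7 and wild type. The log2 difference from wild type was 0.69 ± 0.19 for als3-1 (adjusted p = 0.0412) and 0.71 ± 0.19 for sog1-7 (adjusted p = 0.0318), and both comparisons share the wild type libraries. On 0 mM the difference from wild type was -0.14 ± 0.18 for als3-1 and 0.41 ± 0.18 for sog1-7, and neither was called. All sog1-7 libraries on 0 mM, at 7.46 to 10.0 CPM, were nevertheless above those of wild type, at 5.6 to 7.42 CPM (unadjusted p = 0.0386 by edgeR). The share of all genes separated in this way on 0 mM is not given here. The Al response of LPR1 in sog1-7 minus that in wild type was 0.3 ± 0.26 and was not called, so the sog1-7 excess was not shown to depend on Al. On 1.5 mM the neighbour FRO3 was lower in sog1-7 than in wild type (-2.46 ± 0.53, adjusted p = 0.0129). The als3-1 call was held in 11 of 27 alternative settings. It ended without any 1 of the 6 libraries compared, als3-1 0 mM replicate 3, wild type 0 mM replicate 3 or 4 or sog1-7 1.5 mM replicate 3 or 4 (adjusted p of 0.0506 to 0.14), and without the low-rRNA libraries. The sog1-7 call was held in 19 of 27 settings and ended without any library of sog1-7 or wild type on 1.5 mM (adjusted p of 0.0506 to 0.109). In the same comparisons tissue markers differed as well, and their part in the LPR1 values was not tested. Between als3-1 and wild type on 1.5 mM, 3 of 5 root markers, 2 of 3 root tip markers, 1 of 5 phloem markers and 1 of 4 photosynthesis markers were called lower and 3 of 3 seed protein markers higher. The summed root markers were at 229 to 272 CPM in als3-1 and 494 to 578 CPM in wild type, and the summed root tip markers at 4.40 to 5.25 CPM in als3-1 and 7.74 to 9.32 CPM in wild type. Between sog1-7 and wild type on 1.5 mM, none of the root and root tip markers was called by edgeR or had an unadjusted p under 0.05, 3 of 4 photosynthesis and 1 of 5 phloem markers were called lower, and 1 of 3 seed protein markers was called higher.

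LPR2, the other ferroxidase, rose with Al in als3-1 and in the mean over the 3 genotypes, in which LPR1 fell. It had 47.0, 49.8 and 34.9 CPM in als3-1 on 1.5 mM, against 19.7, 27.8 and 28.5 CPM on 0 mM. In sog1-7 it had 32.3, 31.7 and 26.1 CPM on 1.5 mM, against 21.0, 20.6 and 16.6 CPM on 0 mM. The wild type libraries had 50.0, 42.9 and 40.8 CPM on 1.5 mM, against 29.0, 32.0 and 36.1 CPM on 0 mM. All libraries on 1.5 mM were above those on 0 mM of their genotype, and sog1-7 had the lowest mean at each concentration.

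The log2 fold change of LPR2 was 0.79 ± 0.17 in als3-1 (adjusted p = 0.00608), 0.63 ± 0.17 in sog1-7 (adjusted p = 0.0957) and 0.46 ± 0.17 in wild type (adjusted p = 0.252), and only the first was called. No difference between these responses was called, with 0.33 for als3-1 minus wild type (95% interval -0.17 to 0.83). The mean response was 0.63 ± 0.10 (adjusted p = 0.000362), and it was called in all 27 alternative settings. The als3-1 call was kept whichever library was left out (adjusted p of 0.00254 to 0.0356), and was missed in the fit of the 2 groups alone (adjusted p = 0.0566) and by limma on FPKM (adjusted p = 0.0516).

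LPR2 was lower in sog1-7 than in wild type. On 0 mM it averaged 19.4 ± 2.44 CPM in sog1-7 and 32.4 ± 3.54 CPM in wild type, a log2 difference of -0.74 ± 0.17 (adjusted p = 0.0115). On 1.5 mM it averaged 30.1 ± 3.44 CPM in sog1-7 and 44.6 ± 4.86 CPM in wild type, a difference of -0.57 ± 0.17 (adjusted p = 0.0497). The sog1-7 libraries were below the wild type libraries at both concentrations, as they were for 14.5% of all genes on 0 mM and 14.9% on 1.5 mM. The summed level of 4 photosynthesis markers was also lower in sog1-7 on 0 mM, at 4550 to 7520 CPM, against 20500 to 26000 CPM in wild type on 0 mM, with all 4 called lower. On 1.5 mM it was 7740 to 9800 CPM in sog1-7, against 13000 to 26300 CPM in wild type, with 3 called lower. In als3-1 on 0 mM LPR2 had 19.7 to 28.5 CPM, all below the 29.0 to 36.1 CPM of wild type. This difference was not called (-0.35, unadjusted p = 0.0504 by edgeR), and the share of all genes separated in this way is not given here. The summed photosynthesis markers there were at 7610 to 14400 CPM, with 2 called lower. The part of these markers in the LPR2 values was not tested. The 0 mM call ended without sog1-7 0 mM replicate 4 (adjusted p = 0.0562) and by limma on FPKM (adjusted p = 0.221). The 1.5 mM call was held in 8 of 27 settings and ended without the low-rRNA libraries (adjusted p = 0.0633). Among the fits that left out 1 library it was held only without als3-1 0 mM replicate 2, als3-1 1.5 mM replicate 4, wild type 0 mM replicate 4 or sog1-7 0 mM replicate 4, and ended in the other 14 (adjusted p of 0.0505 to 0.179). In als3-1 LPR2 averaged 43.9 ± 7.88 CPM on 1.5 mM and 25.3 ± 4.92 CPM on 0 mM, and neither difference from wild type was called (-0.02 on 1.5 mM and -0.35 on 0 mM). Against sog1-7 on 1.5 mM als3-1 was 0.55 ± 0.17 higher (adjusted p = 0.0614), and this was called with the replicate block (adjusted p = 0.0375) and without als3-1 0 mM replicate 2 or als3-1 1.5 mM replicate 4 (adjusted p of 0.0213 to 0.0389).

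PDR2, the ATPase that restrains LPR1, was called in none of the 13 comparisons, by edgeR or in any of the 27 alternative settings. Over the 18 libraries it ranged from 93.2 to 131 CPM with a median of 121 CPM. Its 3 lowest values, 93.4 CPM in als3-1 on 1.5 mM, 93.4 CPM in sog1-7 on 1.5 mM and 93.2 CPM in sog1-7 on 0 mM, were those of the 3 low-rRNA libraries. The Al response was -0.19 (95% interval -0.49 to 0.10) in als3-1, -0.09 (-0.39 to 0.20) in sog1-7 and -0.01 (-0.30 to 0.28) in wild type. Without the low-rRNA libraries it was -0.08 in als3-1 (adjusted p = 0.629), -0.13 in sog1-7 (adjusted p = 0.886) and -0.02 in wild type (adjusted p = 0.96).

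**Figure D2:**
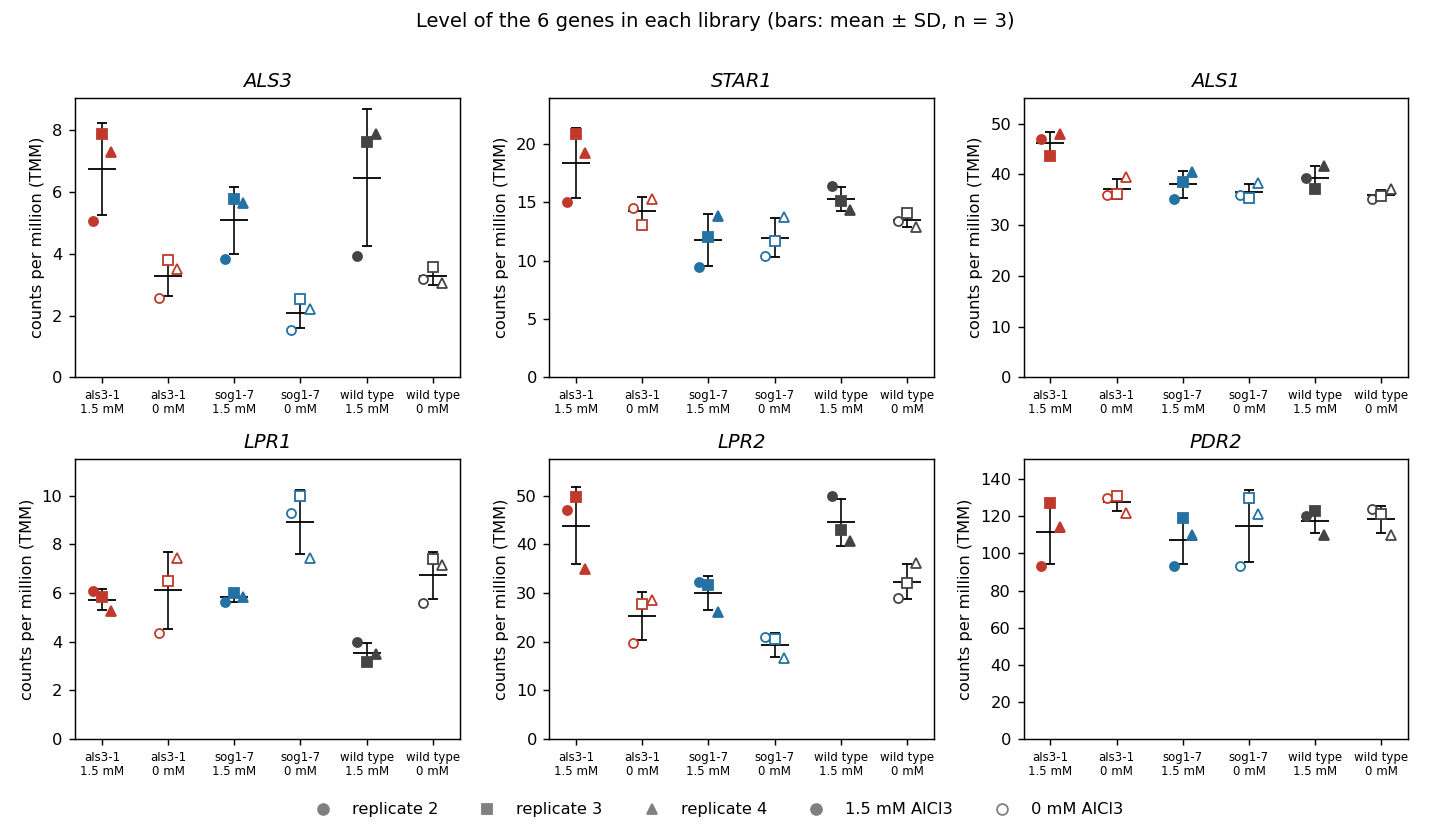
CPM of each gene in each library (y axes from 0), with the mean and SD of each group (n = 3), filled for 1.5 mM and open for 0 mM AlCl3. ALS3 and LPR2 are higher on 1.5 mM in every genotype, LPR1 is lower on 1.5 mM in sog1-7 and wild type, and PDR2 has its 3 lowest values in 3 libraries of replicate 2.

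Counted over the 6 genes, Al raised 3 and lowered none in als3-1, where 4.56% of all tested genes were called higher and 6.29% lower. In sog1-7 Al raised ALS3 alone and lowered none, against 0.739% of all genes higher and 0.448% lower. In wild type Al lowered LPR1 alone and raised none, against 0.896% of all genes higher and 0.988% lower. At an unadjusted p under 0.05 the counts were 4 in als3-1, 3 in sog1-7 and 3 in wild type. Groups that did not overlap were found for 3 genes higher and none lower in als3-1 (13.5% and 15.1% of all genes), 2 higher and 1 lower in sog1-7 (7.11% and 6.68%), and 4 higher and 1 lower in wild type (9.15% and 7.81%). In the mean response over the genotypes 3 were called higher and 1 lower, where 6.13% of all genes rose and 7.5% fell. None of the 6 was called in the differences of the Al response between sog1-7 and wild type or between als3-1 and sog1-7, where 0.00462% and 1.15% of all genes were called, and none had an unadjusted p under 0.05 there. DESeq2 called none of the 6 in the 3 differences of the response either. The median log2 fold change over all genes was between -0.005 and 0.017 in the 3 Al responses.

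**Figure D3:**
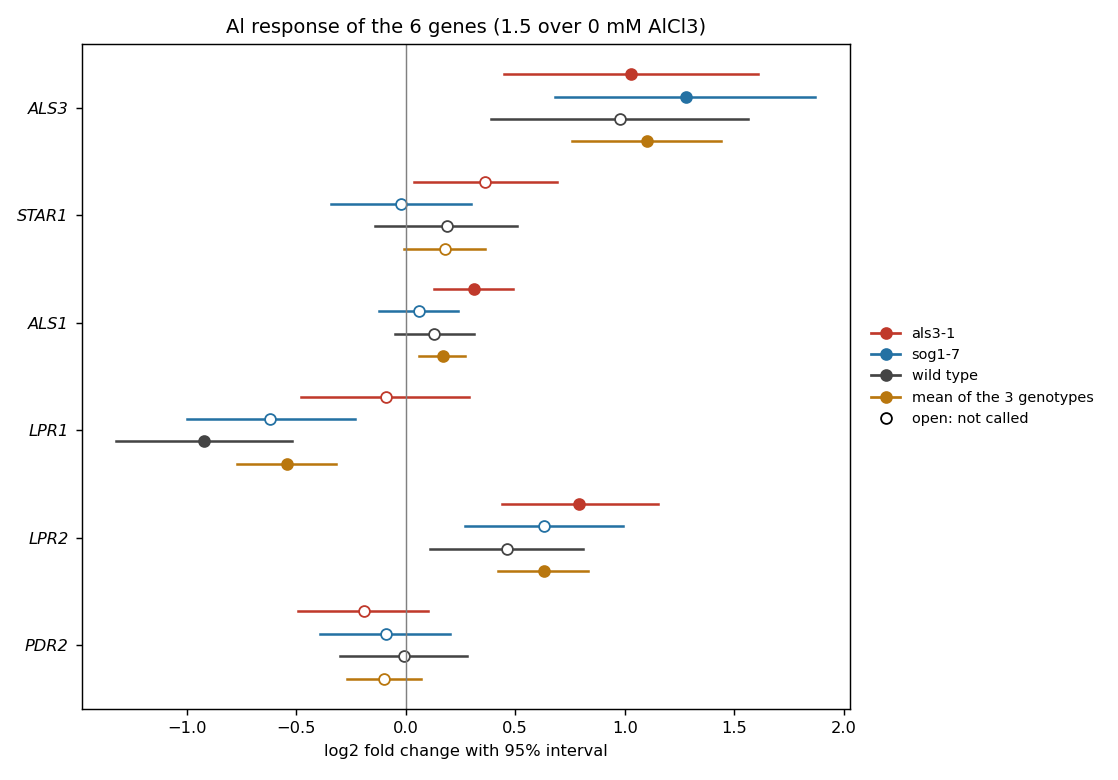
Log2 fold change of each gene with Al (1.5 over 0 mM) in als3-1, sog1-7 and wild type and their mean, with 95% intervals from the edgeR fit. Filled points were called at an adjusted p under 0.05. The points of ALS3 and LPR2 lie right of 0 and those of LPR1 left of 0 in all 3 genotypes. The LPR1 interval in als3-1 includes 0.

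Counted over genotype differences, none of the 6 was called between als3-1 and wild type on 0 mM by edgeR, where 2.32% of all genes were called, none had an unadjusted p under 0.05 there and none was called by DESeq2. LPR2 alone was called between sog1-7 and wild type on 0 mM, where 10.2% of all genes were called. None was called between als3-1 and sog1-7 on 0 mM, where 0.351% of all genes were called and 3 of the 6 had an unadjusted p under 0.05, and none was called by DESeq2. On 1.5 mM the counts were 1 between als3-1 and wild type (5.58% of all genes), 2 between sog1-7 and wild type (7.4% of all genes) and 1 between als3-1 and sog1-7 (6.69% of all genes). With the replicate block these 3 counts were 2, 2 and 3.

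**Figure D4:**
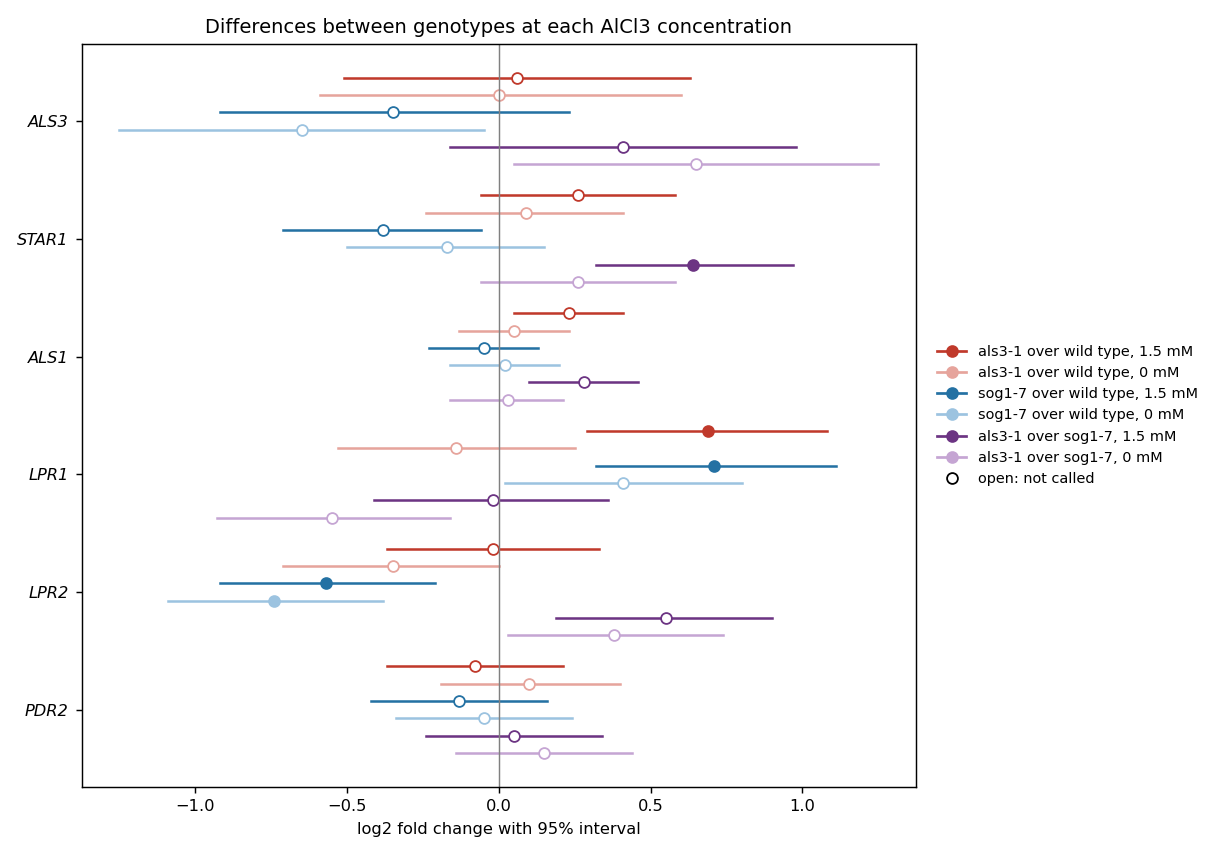
Log2 differences of each gene between genotypes at each AlCl3 concentration, with 95% intervals from the edgeR fit, filled where called. The called points are LPR1 higher in both mutants than in wild type on 1.5 mM, LPR2 lower in sog1-7 than in wild type at both concentrations, and STAR1 higher in als3-1 than in sog1-7 on 1.5 mM.

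The balance of the ferroxidase pair moved with Al in every genotype. Per length, the ratio of LPR1 to LPR2 in als3-1 was 0.141, 0.128 and 0.165 on 1.5 mM, against 0.239, 0.256 and 0.282 on 0 mM. In sog1-7 it was 0.189, 0.202 and 0.244 on 1.5 mM, against 0.482, 0.532 and 0.494 on 0 mM. For wild type the ratios were 0.0864, 0.0815 and 0.0936 on 1.5 mM, against 0.211, 0.254 and 0.216 on 0 mM. The groups did not overlap in any genotype, and the ratio was highest in sog1-7 at each concentration. LPR1 was thus the scarcer of the pair in every library. The sum of both averaged 18.8 ± 5.16 FPKM on 1.5 mM and 11.2 ± 2.17 FPKM on 0 mM in als3-1 (SD, n = 3 each). It averaged 13.8 ± 2.36 FPKM on 1.5 mM and 10.9 ± 2.83 FPKM on 0 mM in sog1-7, and 15.9 ± 3.51 FPKM on 1.5 mM and 12.5 ± 1.40 FPKM on 0 mM in wild type. These ratios and sums restate the levels of the pair and are descriptions with no test. The share of other gene pairs that separate in this way was not counted.

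The mean ratio of ALS3 to STAR1, the parts of 1 transporter, was higher on 1.5 mM in each genotype, without overlap in the mutants only. It was 0.422 against 0.255 in als3-1, 0.504 against 0.204 in sog1-7 and 0.478 against 0.290 in wild type. In als3-1 the single libraries had 0.394, 0.431 and 0.441 on 1.5 mM, against 0.194, 0.312 and 0.260 on 0 mM. In sog1-7 they had 0.500, 0.557 and 0.457 on 1.5 mM, against 0.183, 0.256 and 0.174 on 0 mM. For wild type the ratios were 0.263, 0.555 and 0.617 on 1.5 mM, against 0.297, 0.282 and 0.290 on 0 mM. The mutant groups did not overlap between concentrations, while wild type 1.5 mM replicate 2 lay below all 3 wild type libraries on 0 mM in FPKM. From counts per kilobase that library had 0.284, against 0.282, 0.303 and 0.283 on 0 mM, so the wild type groups overlapped on both scales. The same library stood apart in AT2G37340, the neighbour that overlaps ALS3, at 16.6 CPM. ALS3 was below STAR1 per length in every library.

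**Figure D5:**
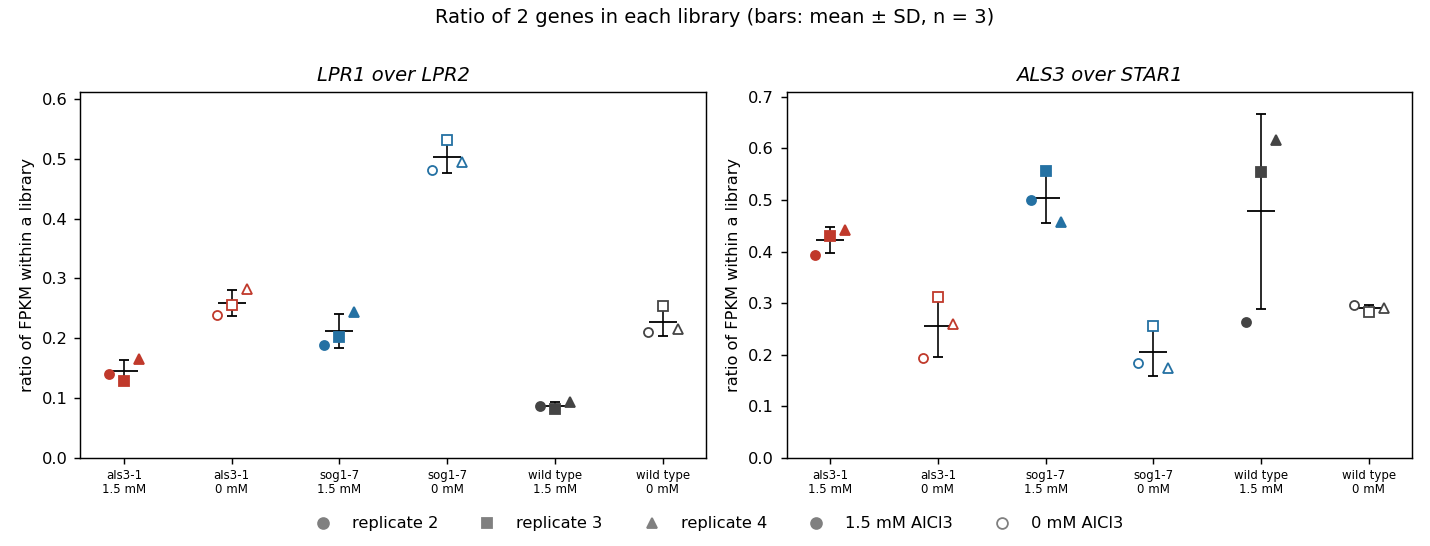
Ratio of FPKM within each library for LPR1 over LPR2 (left) and ALS3 over STAR1 (right), with mean and SD by group (n = 3). The LPR1 to LPR2 ratio is lower on 1.5 mM in each genotype. The mean ALS3 to STAR1 ratio is higher on 1.5 mM in each genotype, with overlapping groups in wild type.

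Over the 18 libraries, the log2 CPM of ALS3 correlated with that of LPR2 (Pearson r = 0.74) and inversely with that of LPR1 (r = -0.64). The r of LPR1 with LPR2 was -0.54, that of ALS3 with STAR1 0.57 and that of STAR1 with ALS1 0.70. These values describe 18 libraries that share the Al contrast and the low-rRNA libraries. Among 17705 expressed genes, those most like ALS3 were AOC1, an enzyme of jasmonate synthesis (r = 0.949), AT4G23470 (r = 0.935) and GH9B13, a glycosyl hydrolase (r = 0.934). Those most like LPR1 were AT4G19110 (r = 0.912), LTI78, a gene known for its response to cold and drought (r = 0.893), and AT3G02610 (r = 0.879). Those most like LPR2 were AT3G60810 (r = 0.929), AT4G37550 (r = 0.895) and PPa2, a pyrophosphatase (r = 0.892). Those most like STAR1 were AT5G27760, SGR6 and RHF1A (r = 0.888 to 0.891). Those most like ALS1 were the transcription factor WRKY23, the glutathione transferase GSTU10 and the RNA polymerase RDR1 (r = 0.892 to 0.914). Those most like PDR2 were EMB2754, CSLD2 and ALDH22A1 (r = 0.949 to 0.961).

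The genes that act above LPR1 in the root tip were compared next. STOP1, the transcription factor that turns on Al tolerance genes, had 54.9 to 81.0 CPM over the 18 libraries and was not called in any comparison. Its libraries in each mutant lay below those of wild type at both concentrations. For sog1-7 this held for 14.5% of all genes on 0 mM and 14.9% on 1.5 mM. The share of all genes for als3-1 is not given here, so its separation has no background to be read against. The difference from wild type was -0.24 in als3-1 and -0.28 in sog1-7 on 0 mM (unadjusted p = 0.0484 and 0.0212 by edgeR). On 1.5 mM it was -0.25 and -0.22 (unadjusted p = 0.0394 and 0.0637). ALMT1, a malate channel and target of STOP1, changed by 1.18 ± 0.18 in als3-1, 3.74 ± 0.20 in sog1-7 and 3.72 ± 0.20 in wild type, and was called in each. The response of als3-1 was smaller than that of wild type by its own test (-2.53 ± 0.26, adjusted p = 0.000986). On 0 mM ALMT1 averaged 69.5 ± 9.67 CPM in als3-1 and 10.1 ± 2.29 CPM in wild type, and this difference was called (2.78 ± 0.19, adjusted p = 4.48e-06). On 1.5 mM ALMT1 averaged 158 ± 13.4 CPM in als3-1 and 133 ± 14.6 CPM in wild type, and the difference was not called (0.25 ± 0.18, adjusted p = 0.488). Of the 10 genes listed for root growth arrest at low phosphate, ALMT1 and FBL3, an F-box gene that acts on STOP1, were called higher in each genotype and none lower. Of these 2, 1 was called without als3-1 0 mM replicate 2 or 1.5 mM replicate 3 in als3-1, and without sog1-7 0 mM replicate 2 or 4 or 1.5 mM replicate 3 or 4 in sog1-7. Without the low-rRNA libraries 3 of the 10 were called higher in als3-1 and 1 in sog1-7. FBL3 changed by 0.67 ± 0.16 in als3-1, 0.85 ± 0.16 in sog1-7 and 1.07 ± 0.16 in wild type. On 0 mM FBL3 was 0.72 ± 0.16 higher in als3-1 than in wild type (adjusted p = 0.0318). BZR1, SIZ1, CLE14, CLV2, PEPR2, SHR and SCR were not called in any of the 3 Al responses. Of all tested genes, 4.56% were called higher and 6.29% lower with Al in als3-1. The shares were 0.739% and 0.448% in sog1-7, and 0.896% and 0.988% in wild type. They also apply to the lists below.

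Among 19 tested Al resistance genes other than the 6, 6 were called higher and 2 lower with Al in als3-1, 6 higher and none lower in sog1-7, and 5 higher and 1 lower in wild type. Without sog1-7 0 mM replicate 4 the count called higher in sog1-7 was 3. The count called lower in als3-1 was 0 without the low-rRNA libraries, als3-1 1.5 mM replicate 2 or als3-1 0 mM replicate 3 or 4, and 1 without als3-1 1.5 mM replicate 3 or 4. The list's median log2 change was 0.18 in als3-1, 0.39 in sog1-7 and 0.19 in wild type, beside 0.017, -0.005 and -0.002 over all genes. DTX42, a citrate transporter, rose by 1.67 ± 0.23 in als3-1, 2.15 ± 0.24 in sog1-7 and 2.09 ± 0.24 in wild type. GDH1, a glutamate dehydrogenase, rose by 0.61 ± 0.14 in als3-1, 1.44 ± 0.14 in sog1-7 and 1.13 ± 0.14 in wild type. On 0 mM GDH1 was 0.85 ± 0.14 higher in als3-1 than in wild type (adjusted p = 0.00481), and their responses did not differ by a call (-0.53, adjusted p = 0.451). XTH31, a cell wall xyloglucan enzyme and 1 of those 2 genes, had log2 changes of -1.10 ± 0.31 in als3-1 (adjusted p = 0.0344), -1.32 ± 0.32 in sog1-7 (adjusted p = 0.0581) and -1.35 ± 0.32 in wild type (adjusted p = 0.0397). Of the 4 genes whose loss relieves the als3-1 root phenotype (ATR, ALT2, SUV2 and SOG1), none was called in an Al response by edgeR or by DESeq2, and none had an unadjusted p under 0.05.

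Of 23 phosphate starvation genes, 13 were called higher and none lower with Al in als3-1 (4.56% of all genes higher). In sog1-7, 5 were called higher (0.739% of all genes), and in wild type 2 (0.896% of all genes). With the replicate block the counts called higher were 16, 13 and 11, and without the low-rRNA libraries 16, 5 and 5, in als3-1, sog1-7 and wild type. Single libraries moved them too, to 7 in als3-1 without als3-1 1.5 mM replicate 3, to 3 in sog1-7 without its 1.5 mM replicate 3 or 4 or its 0 mM replicate 4, and to 4 in wild type without sog1-7 1.5 mM replicate 2. The list's median log2 change was 0.85 in als3-1, 0.66 in sog1-7 and 0.58 in wild type, and in the difference of als3-1 minus wild type none of the 23 was called. IPS1, a non-coding RNA that rises in phosphate-starved plants, changed by 2.84 ± 0.47 in als3-1, 2.74 ± 0.46 in sog1-7 and 2.59 ± 0.45 in wild type, and its homologue AT4 by 2.24 ± 0.26, 1.92 ± 0.26 and 1.64 ± 0.26. NPC4, a phospholipase C, changed by 1.51 ± 0.24 in als3-1 and 1.58 ± 0.25 in sog1-7. MGD2, which makes galactolipid, changed by 1.28 ± 0.26 in als3-1 and 1.33 ± 0.26 in sog1-7. SPX3, a phosphate sensor gene, rose by 1.72 ± 0.43 in als3-1. Its response in als3-1 differed by -0.08 from that in sog1-7 and by 0.41 from that in wild type, and neither was called. For NPC4 and MGD2 the response of als3-1 minus that of wild type was 0.49 and 0.43, also without a call.

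Of 15 tested iron genes, 3 were called lower in every genotype, IRT1, FRO2 and FIT1. They encode the root iron transporter, the ferric reductase and the transcription factor that controls both. Of all genes, 6.29% were called lower in als3-1, 0.448% in sog1-7 and 0.988% in wild type. IRT1 changed by -3.04 ± 0.19 in als3-1, -3.08 ± 0.19 in sog1-7 and -1.22 ± 0.18 in wild type. FRO2 changed by -1.52 ± 0.23 in als3-1, -2.15 ± 0.24 in sog1-7 and -0.98 ± 0.22 in wild type. For IRT1 the response of als3-1 minus that of wild type was called (-1.82 ± 0.25, adjusted p = 0.00398). That of sog1-7 was called too (-1.86 ± 0.26, adjusted p = 0.0482), but not without the low-rRNA libraries. On 0 mM IRT1 averaged 44.6 CPM in sog1-7 and 161 CPM in wild type, and FRO2 22.2 and 140 CPM (both called). On 1.5 mM, 10 of the 15 were called lower and 1 higher in sog1-7 than in wild type (7.4% of all genes called). In wild type 1 of the 3 iron calls was left without any 1 of replicate 2 or 4 of either concentration or 1.5 mM replicate 3. ILR3, a regulator of iron genes, was called higher in als3-1 (0.34 ± 0.10).

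Of 17 tested ABC proteins of the B and I subfamilies other than STAR1 and ALS1, 1 was called lower with Al in als3-1 (ABCI21, -1.23 ± 0.22) and none in sog1-7 or wild type by edgeR (2 and 5 at an unadjusted p under 0.05), with list medians of 0.08, -0.04 and 0.02. Of all genes, 6.29% were called lower in als3-1. Without the low-rRNA libraries 2 of the 17 were called lower there. Of 10 genes of folding in the endoplasmic reticulum, where PDR2 resides, 2 were called higher and 2 lower in als3-1 (4.56% and 6.29% of all genes). The 2 lower calls were lost without any 1 of the 6 als3-1 libraries. Without the low-rRNA libraries 1 folding gene was called higher and none lower. The chaperone gene BIP3 averaged 5.59 ± 4.17 CPM on 1.5 mM and 0.291 ± 0.159 CPM on 0 mM in als3-1, a log2 change of 4.25 ± 0.71. BZIP60, a transcription factor of unfolded protein stress, rose by 0.43 ± 0.13, while BIP2 fell by 0.42 ± 0.12 and CRT1b, a calreticulin, by 0.39 ± 0.12 on the log2 scale.

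Markers of tissues moved with Al, most of all in als3-1 by the number called. The summed level of 5 root markers was 229 to 272 CPM on 1.5 mM, against 474 to 656 CPM on 0 mM, and 3 of the 5 were called lower. Of 3 root tip markers, PLT1 and PLT2 were called lower in als3-1, with a summed level of the list of 4.40 to 5.25 CPM on 1.5 mM, against 9.07 to 11.1 CPM on 0 mM. Of 5 phloem markers, PP2-A1 was called higher in als3-1 (0.64 ± 0.14), with a summed level of 110 to 137 CPM on 1.5 mM, against 82.1 to 112 CPM on 0 mM. In sog1-7 and wild type none of these 13 markers was called with Al by edgeR, 5 values had an unadjusted p under 0.05, and by DESeq2 and with the replicate block 1 root marker was called lower in each. Of 3 seed protein markers, 2 were called higher in als3-1, with a summed level of 0.668 to 33.6 CPM on 1.5 mM, against 0.558 to 1.33 CPM on 0 mM, so the groups overlapped. In sog1-7 the same sum was 2.85 to 34.2 CPM on 1.5 mM, against 1.45 to 2.35 CPM on 0 mM, with no overlap and none of the 3 called by edgeR (2 at an unadjusted p under 0.05, 1 called by DESeq2). In wild type it was 0.498 to 0.898 CPM on 1.5 mM, against 0.806 to 1.04 CPM on 0 mM. None of 4 photosynthesis markers was called with Al by edgeR or DESeq2, and 1 had an unadjusted p under 0.05, in sog1-7. No marker stood at 0 in a group. The part of these markers in the levels of the 6 genes was not tested.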

How the data were processed

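RNA of 18 seedling libraries was measured, and the 6 genes and the gene lists were chosen with earlier results of these data known. Each deposited count value is a whole number of reads assigned to a gene by featureCounts 2.0.0 (per the file headers), and the aligner named in the submitters' processing notes is STAR 2.7.3a. For the deposited FPKM values (fragments per kilobase of transcript and 1e6 fragments) those notes name Cufflinks 2.2.1, and for the genome the build TAIR10. Per the labels' protocols the library kit was directional, while the strand setting of the counting is not given in the sources used here. Of 32535 genes in the FPKM files and the reference, 32507 had the same start and end (99.91%).

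Counts were tested with edgeR 4.0.16 in R 4.3.3 (TMM scaling, filterByExpr by group, 1 mean per group over 18 libraries, robust quasi-likelihood fit, Benjamini-Hochberg adjustment over 21650 genes, threshold 0.05). The common biological coefficient of variation was 0.214, and 3 counts correspond to 0.0673 to 0.117 CPM in a library. Correlations used log2 CPM with a prior count of 2 and genes with a mean of at least 1. Named genes are the 6, the 3 most correlated with each, the called genes of each list up to 4 with the largest change in each Al response, STOP1, ALMT1 and SOG1, and the genes that overlap a member. Alternatives were DESeq2 1.42.0, its size factors in edgeR, no filter, the groups compared alone, the replicate block, leaving out the low-rRNA libraries or each library in turn, ribosomal RNA genes left out of library sizes, and limma 3.58.1 on log2(FPKM + 0.1) and log2(FPKM + 1). The code was tested on simulated data.

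The labels number the libraries but do not say what a number stands for. Same-numbered libraries deviated together from their group means, with a correlation over 0.1 in 43 of 45 pairs, and each of the 18 libraries was closest to its own number. Every pair was over 0.1 in 8 of the 9 comparisons of 2 groups. The exception was sog1-7 against wild type on 0 mM, where the lowest was -0.0496.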

Additional observations from a re-analysis of the deposited data

How the results depend on the processing

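Over 78 results (6 genes in 13 comparisons) and 27 alternative settings, 1995 of 2106 values kept their side of the threshold. Of the others, 95 were no longer called and 16 were newly called, and no called value changed sign. Among the 1995 were 60 uncalled values that changed sign. The largest shift was 0.37 on the log2 scale. How many of the 6 genes were called depended on the setting, and the cause was not tested. With the libraries of the groups compared alone, which leaves fewer samples in the fit, the count was 1 in als3-1 with Al, 0 in sog1-7 and in wild type, and 0 in the 3 genotype comparisons on 1.5 mM. By limma on FPKM with either pseudocount it was 1 in als3-1, 0 in wild type, 2 in the mean response, 0 for sog1-7 against wild type on 0 mM and 0 for als3-1 against wild type on 1.5 mM, and for sog1-7 against wild type on 1.5 mM it was 1 with a pseudocount of 0.1 and 0 with 1. By DESeq2 it was 3 in sog1-7, 2 in wild type, 2 for als3-1 against wild type on 1.5 mM and 3 for als3-1 against sog1-7 on 1.5 mM. With no filter on low counts it was 0 for als3-1 and 1 for sog1-7 against wild type on 1.5 mM. Without the low-rRNA libraries it was 0 in sog1-7 with Al, 0 for als3-1 and 1 for sog1-7 against wild type on 1.5 mM. Leaving out 1 library at a time gave 1 to 3 in als3-1, 0 to 1 in sog1-7 and 0 to 2 in wild type with Al, 0 to 1 for sog1-7 against wild type on 0 mM, and on 1.5 mM 0 to 1 for als3-1 against wild type, 0 to 2 for sog1-7 against wild type and 0 to 2 for als3-1 against sog1-7.

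With the replicate block the count was 2 in wild type with Al, 2 for sog1-7 against wild type on 0 mM, 2 for als3-1 against wild type on 1.5 mM and 3 for als3-1 against sog1-7 on 1.5 mM. The block changed no other call than those given beside the results. Over all genes the block moved the count of calls to 4085 against 2348 in als3-1, 573 against 257 in sog1-7 and 803 against 408 in wild type. By DESeq2 those counts were 3108, 538 and 713. At these counts per gene, a change in LPR1 or ALS3 rests on 66 to 432 reads per library.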
